A study of Mus musculus with 8 samples.

Results

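The proteasome subunit genes described here are the 36 protein-coding genes of the deposited RNA table whose symbol is Psma, Psmb, Psmc or Psmd followed by a number, leaving out the immunoproteasome subunits Psmb8, Psmb9 and Psmb10. They are 36 of the 27277 genes in the table and were chosen by name. The rule uses no measured value, but it was set with earlier results of these data known. The 20S core has 16 of them, 8 alpha-ring genes (Psma1 to Psma8) and 8 beta-ring genes (Psmb1 to Psmb7 and Psmb11), and the 19S regulatory particle has 20, the 6 ATPases Psmc1 to Psmc6 and the 14 genes Psmd1 to Psmd14. A low-count filter left 35 of the 36 for testing. The working name of constitutive subunits did not hold for a pair of the 20S genes. Psma8, known from testis, and Psmb11, known from thymus, were close to the limit of counting, and Psmb11 was the member that did not pass the filter. The assembly chaperones Psmd5, Psmd9 and Psmd10 are counted with the 19S genes here, although they are absent from the mature particle.

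The proteasome degrades proteins that carry ubiquitin chains. Its barrel-shaped 20S core consists of outer rings of alpha subunits, which gate the entrance, and inner rings of beta subunits, of which Psmb5, Psmb6 and Psmb7 carry the proteolytic sites. The 19S particle caps the core: its ring of ATPases unfolds the substrate and threads it into the core, while the non-ATPase subunits bind ubiquitin, remove it and hold the particle together. In the liver, as in other tissues, the genes of both particles are transcribed widely, and the transcription factor Nfe2l1 is known to raise them together when proteasome activity falls.

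The libraries came from mouse primary hepatocytes isolated from liver, cultured for 24 h and stimulated with 100 nM of the hormone glucagon for 12 h, in both genotypes. Control cells had the genotype Lcmr1f/f, with a floxed Lcmr1 gene and no Cre, and knockout cells had Lcmr1f/f * albumin-cre, in which the albumin promoter drives Cre in hepatocytes; Lcmr1 is Med19, a subunit of the Mediator complex that links transcription factors to RNA polymerase II. There were 3 RNA libraries and 1 ChIP library of each genotype, and ages were not given. The labels do not tell whether each RNA library is from its own mouse, so the p-values cover the scatter among these libraries only, and that scatter may be technical. The ChIP titles name RNA poll III as the target while the series design names Lcmr1, so the regions are called ChIP regions below without a target.

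Total counts were 22191800 to 26595200 per RNA library. Over the whole gene, Med19 counts were 154, 226 and 248 for controls 1, 2 and 3 and 90, 166 and 97 for the knockouts. Control 1 stood apart: its chi-square per degree of freedom against controls 2 and 3 was 140.5 and 133.4, where controls 2 and 3 differed by 7.01 and knockout pairs by 27.9 to 56.5. All 8 hepatocyte markers were present and lower in the knockout (control libraries 105150 to 108529 summed CPM, knockout libraries 24767 to 33631, median log2 fold change -1.42), while 10 of 14 macrophage markers were higher and 0 lower (439 to 526 and 850 to 1005, median 0.80). CPM here are counts per 1e6 of the library size scaled by TMM, which sets the bulk of genes equal between libraries. Of the other marker lists, 1 of 9 stellate cell and fibroblast genes (118.9 to 239 and 230 to 276 summed CPM), 1 of 8 endothelial genes (274 to 322 and 309 to 463), 0 of 5 cholangiocyte genes and 0 of 5 lymphocyte genes (2.09 to 3.53 and 3.65 to 7.42) were higher, none was lower, and no marker was at 0 in every library. Cholangiocyte markers summed to 166.6 CPM in control 1, against 40.9 and 49.3 in controls 2 and 3 and 49.6 to 75.6 in the knockouts. Most of the control 1 excess was Sox9, at 129.7, 12.1 and 15.8 CPM in controls 1, 2 and 3. Spp1 was at 29.1, 25.9 and 29.6 CPM there, and Krt19, Krt7 and Epcam were at 3.46 CPM or less. In bulk libraries such as these, fewer cells of a type and less RNA per cell cannot be told apart, and the part of these marker shifts in the results below was not tested.

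Relative to the bulk of genes, proteasome subunit genes were lower in the Lcmr1 knockout as a group: 20 of the 35 tested fell and 0 rose in the edgeR quasi-likelihood test at an adjusted p under 0.05, a split that turned to 0 lower and 11 higher when libraries were scaled by their size alone. Across all 15135 genes tested, 25.5% passed in either direction, 13.0% fell and 12.6% rose, and with library size alone 617 fell and 7711 rose. These shares, here and below, are over genes of all levels past the filter and are not matched to the members in RNA level. The median log2 fold change of the 35 members was -0.42 beside 0.01 for all genes. It turned to 0.18 beside 0.60 with library size alone, so the members lay 0.43 below the median of all genes under both scalings. A change of scaling moves all genes by nearly the same amount, so this gap could hardly differ between them. In fits that left out a library the gap ran from -0.47 (without control 3) to -0.35 (without control 1). All knockout values were below all control values for 14 of the 20S genes and 16 of the 19S genes, a pattern that 22.4% of all genes tested showed. A log2 fold change below 0 was found for 33 of 35 members and for 49.1% of all genes. The exceptions above 0 were Psma8 and Psmd10.

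The falls were modest in most genes. Psmd4 was lowest, at 49.0% of its control mean. The authors' deposited table gives 19 members an adjusted p under 0.05 with a lower value and 0 with a higher one, and marks 1 member as significant, Psmd4, with a log2 fold change of -1.04. The calls rest on few libraries. Without control 1 the number of lower members was again 20, but it was 11 without control 2, 6 without control 3, 4 without knockout 1, 10 without knockout 2 and 5 without knockout 3, with 1 member, Psma8, higher without control 2. Psma5, Psmb6, Psmd4 and Psmd11 passed in each of these fits, and all 20 stayed below 0 in each.

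**Figure D1:**
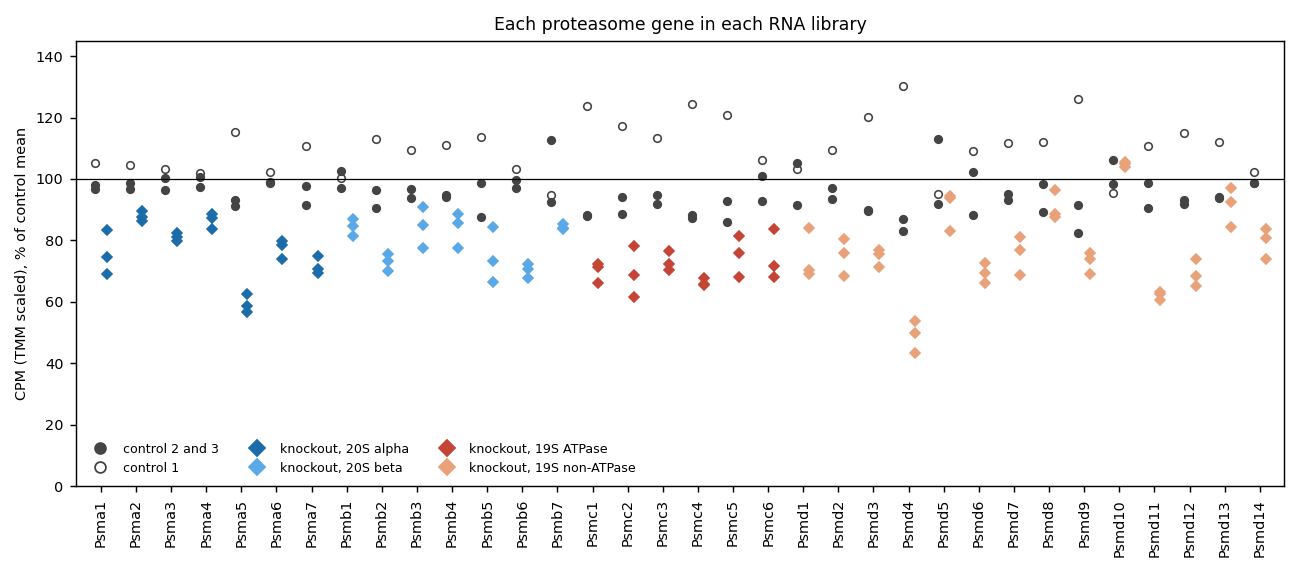
CPM of each proteasome subunit gene in each of the 6 RNA libraries, as a percentage of that gene's control mean (open circle, control 1; filled circles, controls 2 and 3; diamonds, knockouts, coloured by role); Psma8 and Psmb11 are left out because of their low counts. Under TMM scaling the knockout diamonds lie below the control circles for most genes, an order that library size alone does not keep, and control 1 is the highest control for most 19S genes.

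In the alpha ring, 5 of 8 genes fell (Psma1, Psma3, Psma5, Psma6 and Psma7) and 0 rose, with a median log2 fold change of -0.34, beside 13.0% lower among all genes; with library size alone none of them was lower and only Psma5 stayed below 0. Psma5 (ENSMUSG00000068749, chr3:108256926-108279974 on mm10, plus strand), a structural alpha subunit, stood at 61.5, 48.6 and 49.7 CPM in controls 1, 2 and 3 and at 30.2, 31.2 and 33.4 CPM in knockouts 1, 2 and 3. The highest knockout value was well under the lowest control value. From 53.2 ± 7.15 to 31.6 ± 1.62 CPM (SD, n = 3), it fell by 0.75 on the log2 scale (SE 0.13, edgeR adjusted p = 0.00532), and by 0.64 without control 1. With library size alone it still had a negative log2 fold change, -0.16 (edgeR adjusted p = 0.287).

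Psma7, another alpha-ring gene, measured 127, 105 and 112 CPM in the controls and 86.1, 81.2 and 79.5 CPM in the knockouts. The groups did not overlap, and it fell by 0.48 on the log2 scale (SE 0.11, edgeR adjusted p = 0.0178), with 0.11 under library size alone. Psma6 varied little within either group, at 127, 123 and 123 CPM in the controls and 92.1, 99.3 and 97.8 CPM in the knockouts. It fell by 0.37 (SE 0.09, edgeR adjusted p = 0.0263), and library size alone gave 0.22. Psma1 and Psma3 fell by 0.40 and 0.30, while Psma2 (-0.19, edgeR adjusted p = 0.178) and Psma4 (-0.21, edgeR adjusted p = 0.134) did not pass although their groups did not overlap either. With library size alone Psma1 had 0.19 and did not pass. Psma3 (0.29, edgeR adjusted p = 0.0363), Psma2 (0.40, edgeR adjusted p = 0.00875) and Psma4 (0.38, edgeR adjusted p = 0.0123) passed there as higher. The span of Psma2 shares 8943 bp with the protein-coding gene AW209491 on the same strand, where a strand setting would not separate reads. Whether exons of this pair overlap was not examined. Psma8, the testis alpha subunit, lay at 0.0974, 0.763 and 0.108 CPM in the controls and 0.71, 0.445 and 1.25 CPM in the knockouts. These come from 2, 16 and 2 counts and from 22, 14 and 40 counts, the groups overlapped, and its log2 fold change of 1.27 did not pass (SE 0.76, edgeR adjusted p = 0.252).

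Psma2 carried the highest ChIP fold of any member in the control list, so its upstream sequence is printed, from the RefSeq promoter table (GRCm38.p6, which is mm10) and read on the gene's strand and ending before the first start that RefSeq or the deposited table gives; it is short because the neighbouring gene Mrpl32 starts 75 bp away on the other strand. In this and the sequences below, capitals mark matches on either strand to CCAAT (the motif of the NF-Y factor), to the GC box GGGCGG (the motif of Sp1) or to TGACNNNGC, the antioxidant response element core that Nfe2l1 and Nfe2l2 bind. The stretch covers chr13:14613166-14613239 on the plus strand and holds 1 CCAAT match.
Psma2: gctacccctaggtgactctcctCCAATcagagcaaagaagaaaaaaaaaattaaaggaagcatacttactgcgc

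In the beta ring, 2 of 7 tested genes fell, Psmb6 and Psmb2, and 0 rose, beside 13.0% lower among all genes, and the median log2 fold change was -0.25; under library size alone all 7 were above 0. Psmb6 (ENSMUSG00000018286, chr11:70525367-70527858, plus strand) encodes the caspase-like site. It measured 182, 175 and 171 CPM in the controls and 127, 119 and 124 CPM in the knockouts. The groups were narrow and far apart, with 176 ± 5.49 and 124 ± 4.14 CPM (SD, n = 3), and it fell by 0.51 on the log2 scale (SE 0.10, edgeR adjusted p = 0.00863); library size alone gave 0.08. Psmb5 (ENSMUSG00000022193, chr14:54614119-54618022, minus strand) encodes the chymotrypsin-like site, the target of bortezomib. Its values were 58.6, 45.2 and 50.9 CPM in the controls and 43.5, 34.4 and 37.9 CPM in the knockouts. The groups did not overlap, but the log2 fold change of -0.42 did not pass in edgeR (SE 0.14, adjusted p = 0.0614), nor in any edgeR fit that left out a library (adjusted p 0.0654 to 0.163), while DESeq2 gave an adjusted p of 0.0452.

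Psmb7, which encodes the trypsin-like site, had 91.8, 109 and 89.7 CPM in the controls and 81.0, 81.4 and 82.6 CPM in the knockouts. Its knockout values were nearly equal and all below the controls, and its log2 fold change of -0.25 did not pass (SE 0.11, edgeR adjusted p = 0.14). Psmb7 overlaps Nek6 on the other strand, and no source used here gives the strand setting of the counting. Psmb2, a structural beta subunit, went from 88.2, 70.6 and 75.3 CPM to 57.2, 54.7 and 59.1 CPM. It fell by 0.45 (SE 0.12, edgeR adjusted p = 0.0257), with 0.14 under library size alone, and the groups did not overlap. Psmb4, also a structural subunit, went from 230, 196 and 197 CPM to 184, 161 and 178 CPM, again without overlap, and with a log2 fold change of -0.25 had the largest adjusted p of the tested beta genes (0.152 in edgeR, SE 0.12). Psmb1 (-0.24) and Psmb3 (-0.24) did not pass. Psmb11, the thymus beta subunit, had 3 control values of 0.0974, 0 and 0 CPM and knockout values of 0.0323, 0.0635 and 0.0623 CPM, from at most 2 counts in a library, and was not tested.

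Upstream sequence is shown for the catalytic genes Psmb5 and Psmb6, chosen after their values were seen because both hold a TGACNNNGC match, and for Psmb3, which had the highest ChIP fold among beta genes in the promoter table. In Psmb6 the match TGACGGAGC starts 9 bases before the RefSeq start, and in Psmb5 the match TGACGTCGC starts 47 bases before it. Psmb6 also holds a GC box on the other strand, and Psmb3 holds 2 CCAAT matches. The stretches are chr11:70525107-70525356 on the plus strand for Psmb6, chr14:54618023-54618245 on the minus strand for Psmb5 and chr11:97703184-97703398 on the plus strand for Psmb3.
Psmb6: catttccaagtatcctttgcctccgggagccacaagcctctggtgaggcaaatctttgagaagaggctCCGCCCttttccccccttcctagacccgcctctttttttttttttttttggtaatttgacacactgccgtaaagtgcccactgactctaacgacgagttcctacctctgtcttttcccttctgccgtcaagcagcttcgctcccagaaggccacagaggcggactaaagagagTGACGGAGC
Psmb5: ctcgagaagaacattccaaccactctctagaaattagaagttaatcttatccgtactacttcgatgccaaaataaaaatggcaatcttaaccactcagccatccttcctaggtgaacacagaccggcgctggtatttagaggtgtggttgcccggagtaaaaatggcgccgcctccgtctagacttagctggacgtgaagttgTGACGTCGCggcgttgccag
Psmb3: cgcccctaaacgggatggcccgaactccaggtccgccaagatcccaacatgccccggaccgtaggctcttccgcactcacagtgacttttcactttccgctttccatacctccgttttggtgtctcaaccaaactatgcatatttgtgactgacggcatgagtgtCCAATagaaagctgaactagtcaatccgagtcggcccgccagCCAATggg

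The 3 constitutive catalytic genes together fell from 332, 330 and 311 CPM in the controls to 252, 235 and 245 CPM in the knockouts, or to 75.2% of the control mean, with no overlap. Their immunoproteasome counterparts Psmb8, Psmb9 and Psmb10, which replace them when interferon is present, summed to 45.2, 54.4 and 54.8 CPM and to 63.5, 64.4 and 73.7 CPM, and of these only Psmb8 passed (edgeR adjusted p = 0.00922), rising by 0.90 on the log2 scale. Of the counts of the 6 catalytic genes, the immunoproteasome genes thus took 12.0, 14.2 and 15.0% in controls 1, 2 and 3 and 20.1, 21.5 and 23.1% in knockouts 1, 2 and 3 (13.7 ± 1.54% and 21.6 ± 1.49%, SD, n = 3). This share, which no library scaling touches, was higher in every knockout than in every control. It is not adjusted for gene length. The count ratio of Psmb8 to Psmb5 moved furthest, from 0.115, 0.199 and 0.186 to 0.366, 0.413 and 0.444. The ratio of Psmb9 to Psmb6 went from 0.0392, 0.0741 and 0.0817 to 0.106, 0.153 and 0.18. The ratio of Psmb10 to Psmb7 went from 0.342, 0.296 and 0.35 to 0.42, 0.394 and 0.418. All 3 ratios were higher in every knockout library. The macrophage markers, of which 10 of 14 were higher in the knockout as given above, moved with this share, and their part in it was not tested.

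Among the ATPases of the 19S base, 5 of 6 fell (Psmc1, Psmc2, Psmc3, Psmc4 and Psmc6) and 0 rose, beside 13.0% lower among all genes, and the 6 log2 fold changes were close together, from -0.59 to -0.41 with a median of -0.48; under library size alone all 6 were above 0. Psmc4 (ENSMUSG00000030603, chr7:28041707-28050101, minus strand) measured 158, 112 and 111 CPM in the controls and 82.9, 83.4 and 86.0 CPM in the knockouts. Control 1 was far above the other controls, and all knockouts were below all controls. It fell by 0.59 on the log2 scale (SE 0.15, edgeR adjusted p = 0.0269), by 0.41 without control 1 (edgeR adjusted p = 0.01), and library size alone gave 0.01. Psmc3 went from 175, 142 and 147 CPM to 118, 112 and 109 CPM. It fell by 0.45 (SE 0.12, edgeR adjusted p = 0.0277), with 0.14 under library size alone; it overlaps Slc39a13 on the other strand. Psmc2 had 128, 97.0 and 103 CPM in the controls and 75.2, 85.5 and 67.2 CPM in the knockouts.

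The Psmc2 groups did not overlap, and it fell by 0.53 (SE 0.15, edgeR adjusted p = 0.0346), with 0.07 under library size alone. Psmc5, the ATPase that did not pass, had 130, 92.6 and 99.9 CPM in the controls and 87.5, 81.8 and 73.2 CPM in the knockouts. Its groups did not overlap, and its log2 fold change of -0.41 was close to that of the others (SE 0.15, edgeR adjusted p = 0.0812). Psmc1 fell by 0.51 and Psmc6 by 0.43, with 0.09 and 0.16 under library size alone; without control 1 Psmc1 fell by 0.34. Psmc6 was the ATPase with a ChIP region at its start, and its upstream stretch chr14:45329574-45329787 on the plus strand is shown for that reason. It holds a TGACNNNGC match on the other strand and 3 GC boxes.
Psmc6: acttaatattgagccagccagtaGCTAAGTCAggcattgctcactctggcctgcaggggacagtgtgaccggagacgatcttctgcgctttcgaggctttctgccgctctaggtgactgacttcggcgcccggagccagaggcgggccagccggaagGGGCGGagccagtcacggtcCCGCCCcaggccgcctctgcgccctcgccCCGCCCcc

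Of the 14 Psmd genes, 8 fell (Psmd1, Psmd2, Psmd4, Psmd6, Psmd7, Psmd11, Psmd12 and Psmd14) and 0 rose, beside 13.0% lower among all genes, with a median log2 fold change of -0.42, and only Psmd4 and Psmd11 stayed below 0 under library size alone. Psmd4 (ENSMUSG00000005625, chr3:95032694-95042614, minus strand), the ubiquitin receptor also called Rpn10, had the lowest log2 fold change of all members. It stood at 254, 162 and 169 CPM in the controls and at 97.4, 105 and 84.8 CPM in the knockouts. Control 1 lay far above the other controls, and each knockout was below each control. From 195 ± 51.0 to 95.6 ± 10.0 CPM (SD, n = 3), it fell by 1.03 on the log2 scale (SE 0.19, edgeR adjusted p = 0.00765). Without control 1 it fell by 0.80 (edgeR adjusted p = 0.00115), and library size alone gave -0.43 (edgeR adjusted p = 0.0504).

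Psmd11 (ENSMUSG00000017428, chr11:80428615-80473248, plus strand), the lid subunit Rpn6 that bridges the 19S particle and the core, had the smallest adjusted p of all members. It measured 180, 160 and 147 CPM in the controls and 101, 98.3 and 103 CPM in the knockouts. The knockout values were nearly equal and far below the controls, with means of 162 ± 16.5 and 101 ± 2.27 CPM (SD, n = 3). It fell by 0.69 on the log2 scale (SE 0.11, edgeR adjusted p = 0.00483), and library size alone gave -0.09 (edgeR adjusted p = 0.476). Psmd6, a lid subunit, went from 88.4, 71.6 and 82.9 CPM to 53.6, 58.9 and 56.3 CPM. Its groups did not overlap, and it fell by 0.53 (SE 0.11, edgeR adjusted p = 0.0142), with 0.07 under library size alone.

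Psmd14, the deubiquitinase of the lid that cuts ubiquitin chains from substrates, had 53.7, 51.8 and 51.8 CPM in the controls and 38.7, 43.8 and 42.4 CPM in the knockouts. The control values were within a narrow range above all knockouts, and it fell by 0.33 (SE 0.10, edgeR adjusted p = 0.0445), with 0.26 under library size alone. The other lid and base genes that fell were Psmd12 (-0.53), Psmd7 (-0.40), and the large base scaffolds Psmd1 (-0.43) and Psmd2 (-0.42). Psmd3 missed the threshold with -0.42 (edgeR adjusted p = 0.0616) and in each edgeR fit that left out a library (adjusted p 0.0578 to 0.154), while DESeq2 gave an adjusted p of 0.0402. The lid genes Psmd8 (-0.14, edgeR adjusted p = 0.426) and Psmd13 (-0.13, edgeR adjusted p = 0.437) had overlapping groups.

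The base assembly chaperones Psmd5, Psmd9 and Psmd10, which help build the ATPase ring and are absent from the mature particle, did not pass in edgeR (0 of 3, median log2 fold change -0.15). Psmd10, also called gankyrin, had 11.7, 12.0 and 13.0 CPM in the controls and 12.7, 12.9 and 12.8 CPM in the knockouts. The groups overlapped, at 12.2 ± 0.671 and 12.8 ± 0.0877 CPM (SD, n = 3), and the value on the log2 scale was 0.07 (SE 0.13, edgeR adjusted p = 0.729), and library size alone gave 0.65 (edgeR adjusted p = 0.00636). Psmd5 overlapped too (-0.15, edgeR adjusted p = 0.41), and Psmd9, with -0.45, missed the threshold (edgeR adjusted p = 0.0788). Without the chaperones, 8 of 11 Psmd genes fell, with a median of -0.42. Whether the chaperones differed from the structural subunits was not tested. Counted over whole gene spans, Psmd9 shares 10921 bp with the hepatocyte gene Hpd on the other strand and Psmd1 shares 12945 bp with Htr2b. Where exons of such a pair overlap, reads cannot be told apart without a strand setting. Whether the exons overlap was not examined. Processed pseudogenes overlap Psmb7 and Psmd13 (Gm13586 and Gm15542), and the counting could have split reads with them.

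Upstream sequence is shown for Psmd4 and Psmd11, chosen after their values were seen as the Psmd genes with the lowest log2 fold changes, and for Psmd8, which had the highest ChIP fold in its role and did not pass the RNA test. Psmd4 holds a CCAAT match on the other strand, and Psmd8 and Psmd11 hold 1 GC box each. The stretches are chr3:95042615-95042864 on the minus strand, chr11:80428365-80428614 on the plus strand and chr7:29180702-29180923 on the minus strand.
Psmd4: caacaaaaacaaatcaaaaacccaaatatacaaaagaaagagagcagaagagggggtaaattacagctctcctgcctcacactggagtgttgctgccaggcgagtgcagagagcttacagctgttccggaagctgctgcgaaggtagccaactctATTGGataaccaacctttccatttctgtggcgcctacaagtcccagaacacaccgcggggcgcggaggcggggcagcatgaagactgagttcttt
Psmd11: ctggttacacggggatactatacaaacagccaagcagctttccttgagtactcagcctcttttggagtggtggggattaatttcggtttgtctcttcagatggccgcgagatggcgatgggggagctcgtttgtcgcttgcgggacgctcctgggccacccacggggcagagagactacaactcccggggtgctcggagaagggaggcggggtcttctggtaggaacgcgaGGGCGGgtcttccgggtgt
Psmd8: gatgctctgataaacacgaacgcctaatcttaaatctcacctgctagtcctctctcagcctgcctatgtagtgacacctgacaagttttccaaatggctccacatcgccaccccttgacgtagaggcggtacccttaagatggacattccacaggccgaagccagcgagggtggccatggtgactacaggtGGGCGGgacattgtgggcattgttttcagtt

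**Figure D2:**
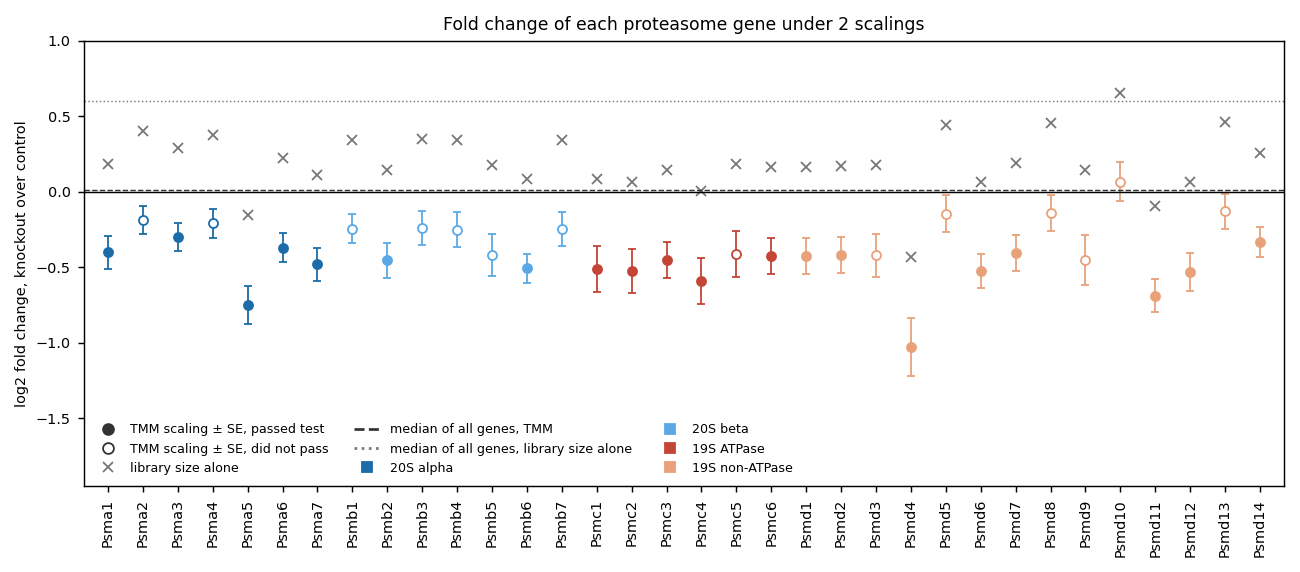
Log2 fold change (knockout over control) of each proteasome subunit gene except Psma8 and Psmb11, with TMM scaling (circles ± SE, filled where the edgeR test was passed) and with library size alone (crosses); lines give the median of all genes under each scaling. Psmd4 is lowest at -1.03 and the ATPases lie between -0.59 and -0.41 with TMM, while with library size alone only Psma5, Psmd4 and Psmd11 lie below 0.

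Set side by side, 7 of 15 tested 20S genes and 13 of 20 19S genes fell under TMM scaling, with medians of -0.30 and -0.43, where library size alone gave 0 lower in both, 7 and 4 higher, and medians of 0.29 and 0.16. Relative to the median of all genes, the 20S median was -0.32 and the 19S median -0.44 with TMM. The values were -0.31 and -0.44 with library size alone, where a near match is given, since scaling moves all genes nearly alike. The summed level of the 20S genes was 1566, 1431 and 1445 CPM in the controls and 1191, 1142 and 1167 CPM in the knockouts, a drop to 78.8% of the control mean. For the 19S genes the sums were 2668, 2136 and 2145 CPM and 1697, 1720 and 1612 CPM, or 72.4% of the control mean. In both particles all knockouts lay below all controls on this scale.

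Without the TMM factors the summed shares of all counts went the other way. The 20S sum per 1e6 counts was 1205 ± 6.64 for controls and 1430 ± 58.9 for knockouts, and the 19S sum was 1881 ± 155 and 2053 ± 8.54 (SD, n = 3). The 19S groups met at control 1, which had 2060 per 1e6 like the highest knockout. The ratio of 20S to 19S counts within a library needs no scaling. It was 0.587, 0.670 and 0.674 in controls 1, 2 and 3 and 0.702, 0.664 and 0.724 in knockouts 1, 2 and 3, with means of 0.643 ± 0.0490 and 0.697 ± 0.0302 (SD, n = 3). The groups overlapped, and the difference between the particles was not tested, because no p was computed over a list chosen with results known. Leaving out the chaperones gave 0.675 ± 0.0524 and 0.736 ± 0.0315. Control 1 set much of the gap: without it the knockout ratio was higher by 0.0250 on average, in place of 0.0532. In control 1, 18 of 20 19S genes and 13 of 15 20S genes were above their group mean, with median log2 deviations of 0.17 and 0.06.

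**Figure D3:**
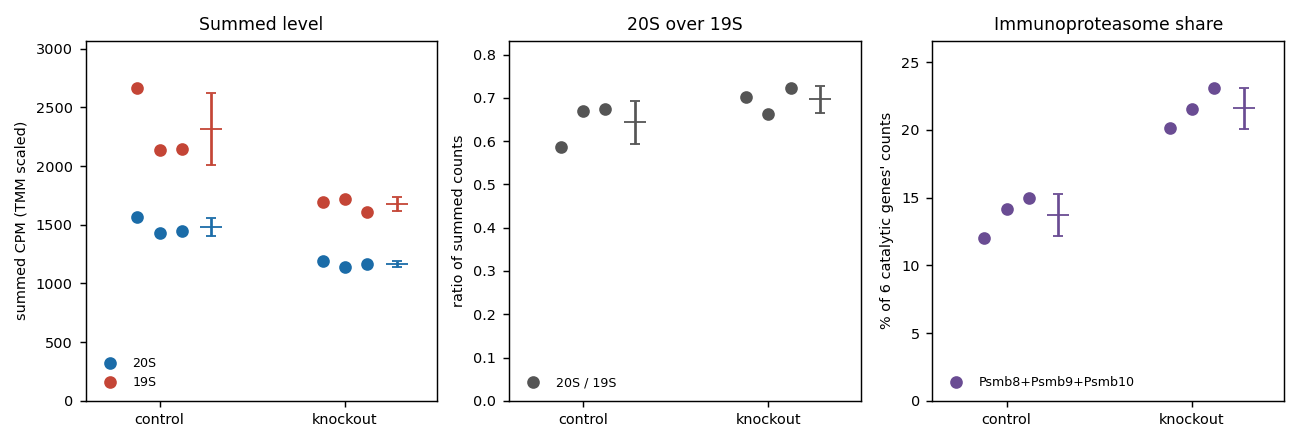
Summed CPM of the 20S and 19S genes (left), ratio of summed 20S to summed 19S counts (middle) and immunoproteasome genes as a percentage of the counts of the 6 catalytic genes (right) in each RNA library; bars give the mean ± SD (n = 3). Both TMM-scaled sums are lower in the knockouts, an order that turns for the 20S sum and overlaps for the 19S sum without TMM factors; the ratio overlaps and the immunoproteasome share of 12.0 to 15.0% and 20.1 to 23.1% does not.

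The other genes of the pathway are read beside the 13.0% of all genes that fell. Among 5 activator and inhibitor genes, 1 fell, Psme4, the nuclear activator (-0.41, edgeR adjusted p = 0.0205), with a median of 0.05, and of 5 chaperones of 20S assembly 0 passed, with a median of -0.05. Of 12 tested genes for other proteins that bind the 19S particle, 4 fell and 0 rose, with a median of -0.29. They were the ubiquitin receptor Adrm1 (-0.88), the shuttle factor Ubqln4 (-0.76), the thioredoxin-like Txnl1 (-0.57) and the deubiquitinase Usp14 (-0.45). Adrm1 was at 342, 192 and 199 CPM in the controls and 143, 135 and 119 CPM in the knockouts, so control 1 stood high here as for Psmd4, and the groups did not overlap (edgeR adjusted p = 0.0274).

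Among 13 tested genes of the factors that act on proteasome genes, 3 fell, 1 rose and the median was -0.34; the number passing is near the 25.5% of all genes that passed in either direction. Nfe2l1 itself was at 246, 255 and 238 CPM in the controls and 261, 257 and 239 CPM in the knockouts. The groups overlapped almost fully (log2 fold change 0.03, SE 0.10, edgeR adjusted p = 0.834); the protein is set by processing after translation, which RNA does not measure. Its relative Nfe2l2 rose by 0.40 (edgeR adjusted p = 0.0229). Ngly1 and Vcp, which act in the processing of the Nfe2l1 protein, fell by 0.37 and 0.49. Nfyb, a subunit of the CCAAT-binding factor NF-Y, went from 64.6, 40.3 and 39.9 CPM to 19.7, 18.2 and 17.9 CPM. Control 1 was again the highest, all knockouts lay below all controls, and Nfyb fell by 1.38 (SE 0.20, edgeR adjusted p = 0.0032). The NF-Y subunits Nfya (0.09, edgeR adjusted p = 0.804) and Nfyc (-0.23, edgeR adjusted p = 0.2) did not pass.

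Of 15 genes for ubiquitin and its activation, 2 fell and 0 rose, with a median of -0.12, a count near the 13.0% of all genes that fell and so no result about this list. Rps27a, a ubiquitin gene fused to a ribosomal protein, was at 121, 102 and 115 CPM in the controls and 79.0, 73.6 and 67.1 CPM in the knockouts. Its groups did not overlap, and it fell by 0.62 (SE 0.11, edgeR adjusted p = 0.00774). The polyubiquitin gene Ubb had overlapping groups (0.16, edgeR adjusted p = 0.556). Other large complexes served for comparison. The CCT chaperonin had 0 of 7 genes lower and a median of -0.02, the COP9 signalosome, whose architecture resembles the 19S lid, 1 of 9 (Cops6) and -0.04, and the translation initiation complex eIF3, which shares that architecture too, 7 of 13 and -0.37. None of these 3 complexes had a higher gene under TMM scaling. With library size alone all medians move up with the shift of 0.588 in the median of all genes, so these directions hold only relative to that bulk.

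**Figure D4:**
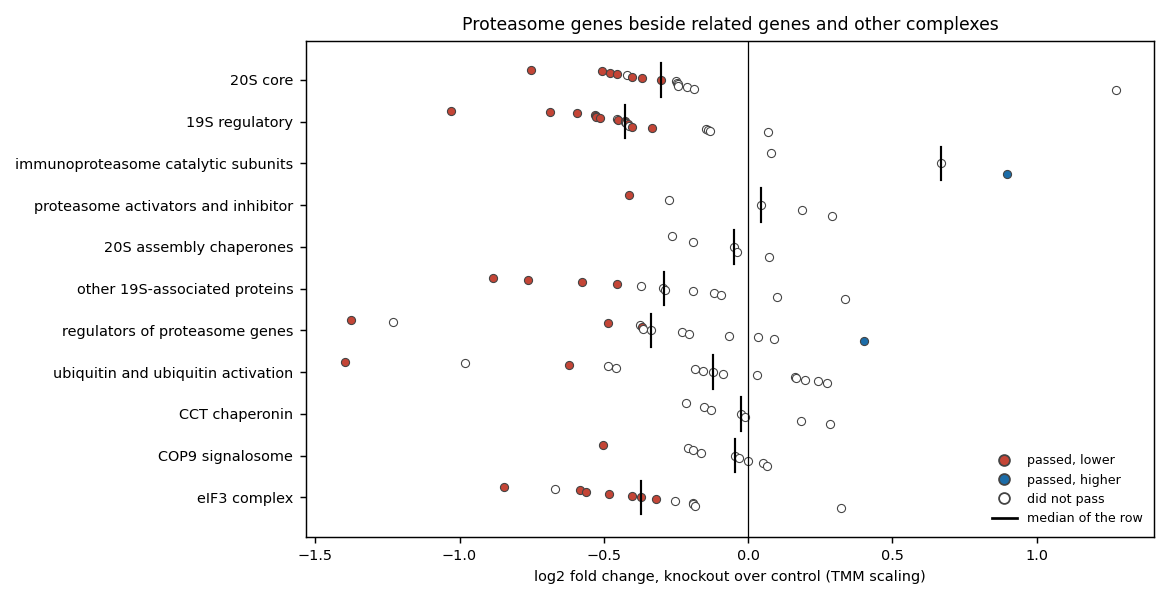
Log2 fold changes (knockout over control, TMM scaling) of the tested genes of the 20S core, the 19S particle, other genes of the pathway and 3 other complexes; each circle is a gene, red or blue where the edgeR test was passed, and the bar is the median of the row. The 19S row (-0.43), the eIF3 row (-0.37) and the regulator row (-0.34) have the lowest medians, and all rows would move up by about the 0.588 shift of the median of all genes with library size alone.

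The deposited ChIP lists hold 22793 regions for the control library and 1649 for the knockout library, with 1 library per genotype and so no test. The fold over background is the authors' value for a region and is used only within a list. Of the 36 members, 16 (44.4%) had a region within 1 kb of the annotated start in the control list. There 26.5% of all 17132 protein-coding genes and 33.9% of those tested for RNA had one. Of those at least as abundant as the least abundant tested member other than Psma8 (12.2 CPM in the controls), 47.6% had one. The last set applies a minimum and does not match RNA levels, and the 36 members include Psma8 and Psmb11, which lie below that minimum. The members' share was above the first 2 shares and near the last. In the knockout list 1 of 36 (2.78%) had a region, beside 1.57%, 1.96% and 2.85% in the same sets of genes.

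Regions were found at 6 of 8 alpha-ring genes, 3 of 8 beta-ring genes, 1 of 6 ATPase genes and 6 of 14 Psmd genes in the control list, or at 9 of 16 20S genes (56.2%) and 7 of 20 19S genes (35.0%). Psma2 had the highest fold of the members, 8.77, in chr13:14612856-14613448, a region that also spans the start of Mrpl32. Psmd8 followed with 8.53, Psma3 with 7.94 and Psmd4 with 7.47, its region being chr3:95042356-95042657. In the remaining roles the highest folds were 6.55 at Psmc6, 6.25 at Psmb2 and 5.33 at Psmb3. The median fold of all control regions was 5.33, so Psmb3 was at the middle of the list. None of the catalytic genes Psmb5, Psmb6 and Psmb7 had a region at its start in either list. A fold could be assigned to a shared start only by position: Psma2, Psma4, Psma7 and Psmd13 start 75, 208, 76 and 341 bp from a protein-coding gene on the other strand.

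Psma4 was the member with a region within 1 kb of its start in both lists. Over whole genes, Psmd9 had 3 control and 9 knockout regions, the latter covering 7604 bp, with the nearest knockout region 1795 bp from its annotated start. Psmd9 overlaps Hpd, and regions within that overlap cannot be assigned to either gene. How many of them lie there was not counted. The RefSeq start of Psmd9 lies 58777 bp from the annotated one, and the control region nearest to it is 46141 bp away, so Psmd9 counts among the 16 only by the annotated start. In the control list the Psma4 region chr9:54950422-54951127 held summits with folds of 7.46 and 6.17, 146 bp before and 106 bp past the annotated start of Psma4. In the knockout list the Psma4 region chr9:54950654-54950996 of 343 bp had a fold of 8.21 with its summit 2 bp past the start. The 30 bases that end at that summit, chr9:54950763-54950792 on the plus strand, are shown because the regions of both lists cover them; they hold 3 GC boxes on the other strand, each sharing 1 base with the next.
Psma4: cgtcctcCCGCCCCGCCCCGCCCcctcgca

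**Figure D5:**
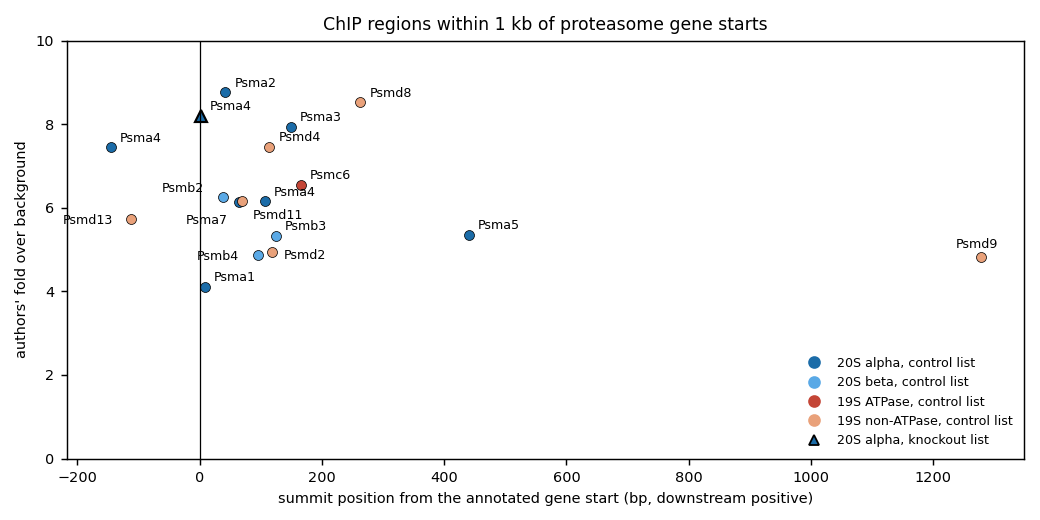
Authors' fold over background of each ChIP region within 1 kb of a proteasome gene start against the distance of its summit from that start (bp, downstream positive; circles, control list; triangle, knockout list). Most control summits lie 8 to 263 bp past the start, folds run from 4.12 to 8.77, and Psma4 alone has a knockout region; Psmd9 stands 1278 bp away from the annotated start used here, since only the edge of its region falls within 1 kb.

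The RNA changes were set beside the control regions, with no test of the difference. Of 16 members with a region, 9 fell, with a median log2 fold change of -0.41, and of the 19 tested members without one, 11 fell, with a median of -0.42; both medians are on the TMM scale and turn with the scaling as above. Psma2 and Psmd8, with the highest folds, had log2 fold changes of -0.19 and -0.14, and Psmb6, with no region, had -0.51.

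The RefSeq promoter table matched 29 of the 36 members, and each window of 300 bases (250 before to 50 after the RefSeq start) was searched on both strands. TGACNNNGC was found in 5 of 29 windows (17.2%), at Psmb5, Psmb6, Psmc6, Psmd9 and Psmd12, beside 14.8% of 17491 protein-coding genes. CCAAT was found in 12 (41.4%) beside 42.3%, and GGGCGG in 18 (62.1%) beside 49.2%. By particle, CCAAT was in 7 of 12 20S windows (58.3%) and 5 of 17 19S windows (29.4%), and GGGCGG in 5 (41.7%) and 13 (76.5%), so that the GC box was the commoner motif in 19S windows and CCAAT in 20S windows; neither difference was tested. In Psmd9 the TGACNNNGC match shares 4 bases with a GC box. These are matches of letters within this window and not measured binding sites.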

How the data were processed

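RNA was measured in 6 libraries (3 control, 3 knockout) and ChIP in 2. The authors deposited 1 table of whole-number counts per gene on mm10, and the submitters' processing notes name HTSeq 0.6.0, HISAT2 2.1.0 and Bowtie2 2.2.3; no source used here gives the strand setting. The same deposited table holds the authors' log2 fold change, p-value and adjusted p-value. The authors deposited 1 narrowPeak list per ChIP library, in which each region has a score, a -log10 p, a -log10 q and its enrichment as a fold or ratio, and MACS2 is named in the submitters' processing notes; use of an input library is not given.

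Groups came from the sample titles. The filterByExpr step of edgeR 4.0.16 (R 4.3.3; count of at least 10, total of at least 15) kept 15135 genes. Libraries were scaled by TMM (factors 0.773 to 0.837 in the controls and 1.20 to 1.27 in the knockouts). Genotype was tested gene by gene in edgeR's robust quasi-likelihood model, two-sided and without other terms, and p-values were adjusted by Benjamini-Hochberg over all genes, with a threshold of 0.05. Medians and counts over lists carry no test. DESeq2 1.42.0, other scalings, no filter, a replicate block and leaving out each library were alternatives. The pipeline was tested on simulated data. There it called 31 of 100 genes changed 2-fold and 84 of 100 changed 4-fold, with 8 false calls among 14935 unchanged genes. The changed genes were drawn at random from all genes tested, not matched to the members in level, and moved up or down at random. All libraries shared the same mean profile otherwise, so the simulation cannot show how calls depend on the scaling. A gene that did not pass may thus still have changed. A gene had a ChIP region where at least 1 base lay within 1 kb of the start in the deposited table. The members, the comparison lists and the rule for named genes (per role, the 3 smallest adjusted p and the largest, the catalytic genes, Psmd14, Psma8 and Psmb11) were chosen with earlier results of these data known. Of 138 list entries, 132 were in the table. A gene that passed in 1 comparison list is not reported here by name.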

Additional observations from a re-analysis of the deposited data

How the results depend on the processing

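The direction rests on the scaling. With library size alone the numbers of lower and higher members became 0 and 7 in the 20S core and 0 and 4 in the 19S particle, the medians reversed to 0.29 and 0.16, and the log2 fold changes of 30 members turned positive. They were Psma1 0.19, Psma2 0.40, Psma3 0.29, Psma4 0.38, Psma6 0.22, Psma7 0.11, Psmb1 0.35, Psmb2 0.14, Psmb3 0.35, Psmb4 0.34, Psmb5 0.18, Psmb6 0.083, Psmb7 0.34, Psmc1 0.0854, Psmc2 0.0668, Psmc3 0.14, Psmc4 0.00674, Psmc5 0.18, Psmc6 0.16, Psmd1 0.16, Psmd2 0.17, Psmd3 0.18, Psmd5 0.44, Psmd6 0.0666, Psmd7 0.19, Psmd8 0.46, Psmd9 0.14, Psmd12 0.0626, Psmd13 0.46 and Psmd14 0.26. This alternative omits the factors that set the bulk of genes equal, and the median of all genes moved with it. No other alternative reversed a member.

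Upper-quartile factors left 4 lower 20S genes and 7 lower 19S genes (0 higher), and omitting the count filter left 4 and 11 lower. DESeq2 gave 8 and 14 lower, and 20 of the 20 edgeR calls were among them. Leaving out 1 library gave 2 to 7 lower and 0 to 1 higher 20S genes and 2 to 13 lower 19S genes, with fewer samples in each fit. The replicate block gave 5 and 9 lower and kept 13 of the 20 calls; Psma1, Psma3, Psma6, Psmc6, Psmd2, Psmd7 and Psmd14 missed the threshold there (edgeR adjusted p 0.0502 to 0.0837) and Psmb5 passed (0.0366). Correlations of same-numbered deviations were 0.11, 0.0521 and 0.0937, and those of differently numbered ones ran from -0.0892 to 0.0202. Each sample thus correlated best with its own number, a weak hint of pairing from the data. The labels do not tell whether same-numbered samples are paired. The ratio of 20S to 19S counts stayed higher in the knockout under each leave-out, by 0.0250 to 0.0695. At a -log10 q of at least 5, 10 members kept a control ChIP region, and within 5 kb 2 members had a knockout region; with RefSeq starts, an alternative chosen after seeing the data, 17 had a control region, with Psma6 and Psmd5 gained and Psmd9 lost. The causes were not tested. Psma8 and Psmb11 had at most 40 counts in a library, so little can be read from their values.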
